A study of Mus musculus with 2 samples.

Results

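The antioxidant and redox genes of primordial germ cells (PGCs), from which eggs and sperm arise, were described in the mouse embryo at day 9.5. They were chosen by a rule on gene symbols, with earlier results of these data known. It covered the peroxiredoxins, glutathione peroxidases, glutathione S-transferases, thioredoxins and thioredoxin-like proteins, glutaredoxins, superoxide dismutases and heme oxygenases. Also covered were Cat, Nqo1, Gclc, Gclm, Gss, Gsr, Nfe2l2, Keap1, Srxn1 and the sestrins. The rule found 70 of the 18877 genes in the table, 2 of them pseudogenes. Because the thioredoxin symbols also cover proteins of other functions, such as the splicing factors Txnl4a and Txnl4b, the groups below are given by role.

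Both libraries belonged to 1 group, E9.5 PGCs from untreated C57BL6 embryos, enriched by antibody for SSEA1, a carbohydrate antigen on their surface. The methods describe female embryos, and say that sorting was by flow cytometry or on magnetic beads. They name Smart-seq2 cDNA synthesis whereas the labels name another library kit, so the chemistry is uncertain. With 1 group and 2 libraries no condition could be compared. The study describes its RNA-seq samples as biological replicates but does not say which embryos went into each library, and each spread is an SD over these libraries (n = 2).

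Aerobic cells produce superoxide, much of it in mitochondria. Superoxide dismutases turn it into hydrogen peroxide, and catalase, peroxiredoxins and glutathione peroxidases then reduce the peroxide. Peroxiredoxins are regenerated by thioredoxin and thioredoxin reductase, glutathione peroxidases by glutathione and glutathione reductase, and both routes draw on NADPH. The transcription factor NRF2 (Nfe2l2), held back by KEAP1, activates many of these genes through the antioxidant response element (ARE). Mitochondria and the cytosol hold separate sets of several of the enzymes. Glutathione S-transferases join glutathione to reactive compounds.

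Levels are given as TPM, a relative abundance per base of gene length. The table's low values were whole multiples of the amount that 1 read is worth, which gave 15912471 reads in replicate 1 and 5458687 in replicate 2, a 2.92-fold difference in depth. Values of replicate 2 are therefore less precise. Intervals in brackets are exact 95% Poisson intervals on the recovered reads and cover counting error only. All 10 PGC markers reached 1 TPM in both libraries, led by Dppa3 at 5013 and 5075 TPM, although Pou5f1 was only at 1.54 and 1.46. Of 7 erythroid markers in the table, 6 reached 1 TPM in both, and their summed level was 4002 and 3780 TPM, nearly all from globins. The macrophage markers summed to 19.4 and 9.53 TPM. The endothelial, mesenchymal and endoderm markers each had 1 of 5 genes at or above 1 TPM in both libraries (Lum and Foxa1 were listed at 0 in both), whereas all 3 neural markers reached it, with sums of 6.41 and 7.05 TPM. In bulk samples fewer cells of a type and less RNA per cell cannot be told apart.

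Most of the redox genes were detected, and a few genes carried most of the signal. In both libraries 1 TPM or more was reached by 61 of 70, or 87.1%, beside 60.0% of all genes in the table and 69.5% of the protein-coding ones. At least 10 TPM in both was reached by 41 (58.6%, beside 25.3%), and at least 100 TPM by 15 (21.4%, beside 6.1%). The median level of the 70 genes was 4.35 in replicate 1 and 4.09 in replicate 2 on the log2(TPM + 1) scale (4.22 ± 0.179, SD, n = 2), beside 1.87 ± 0.0282 over all genes. Together they held 0.660% ± 0.0297 of all TPM. Prdx1, Sod1 and Txnl4a alone made up 46.3% ± 0.643 of that, and the 10 highest genes 75.3% ± 0.266.

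**Figure D1:**
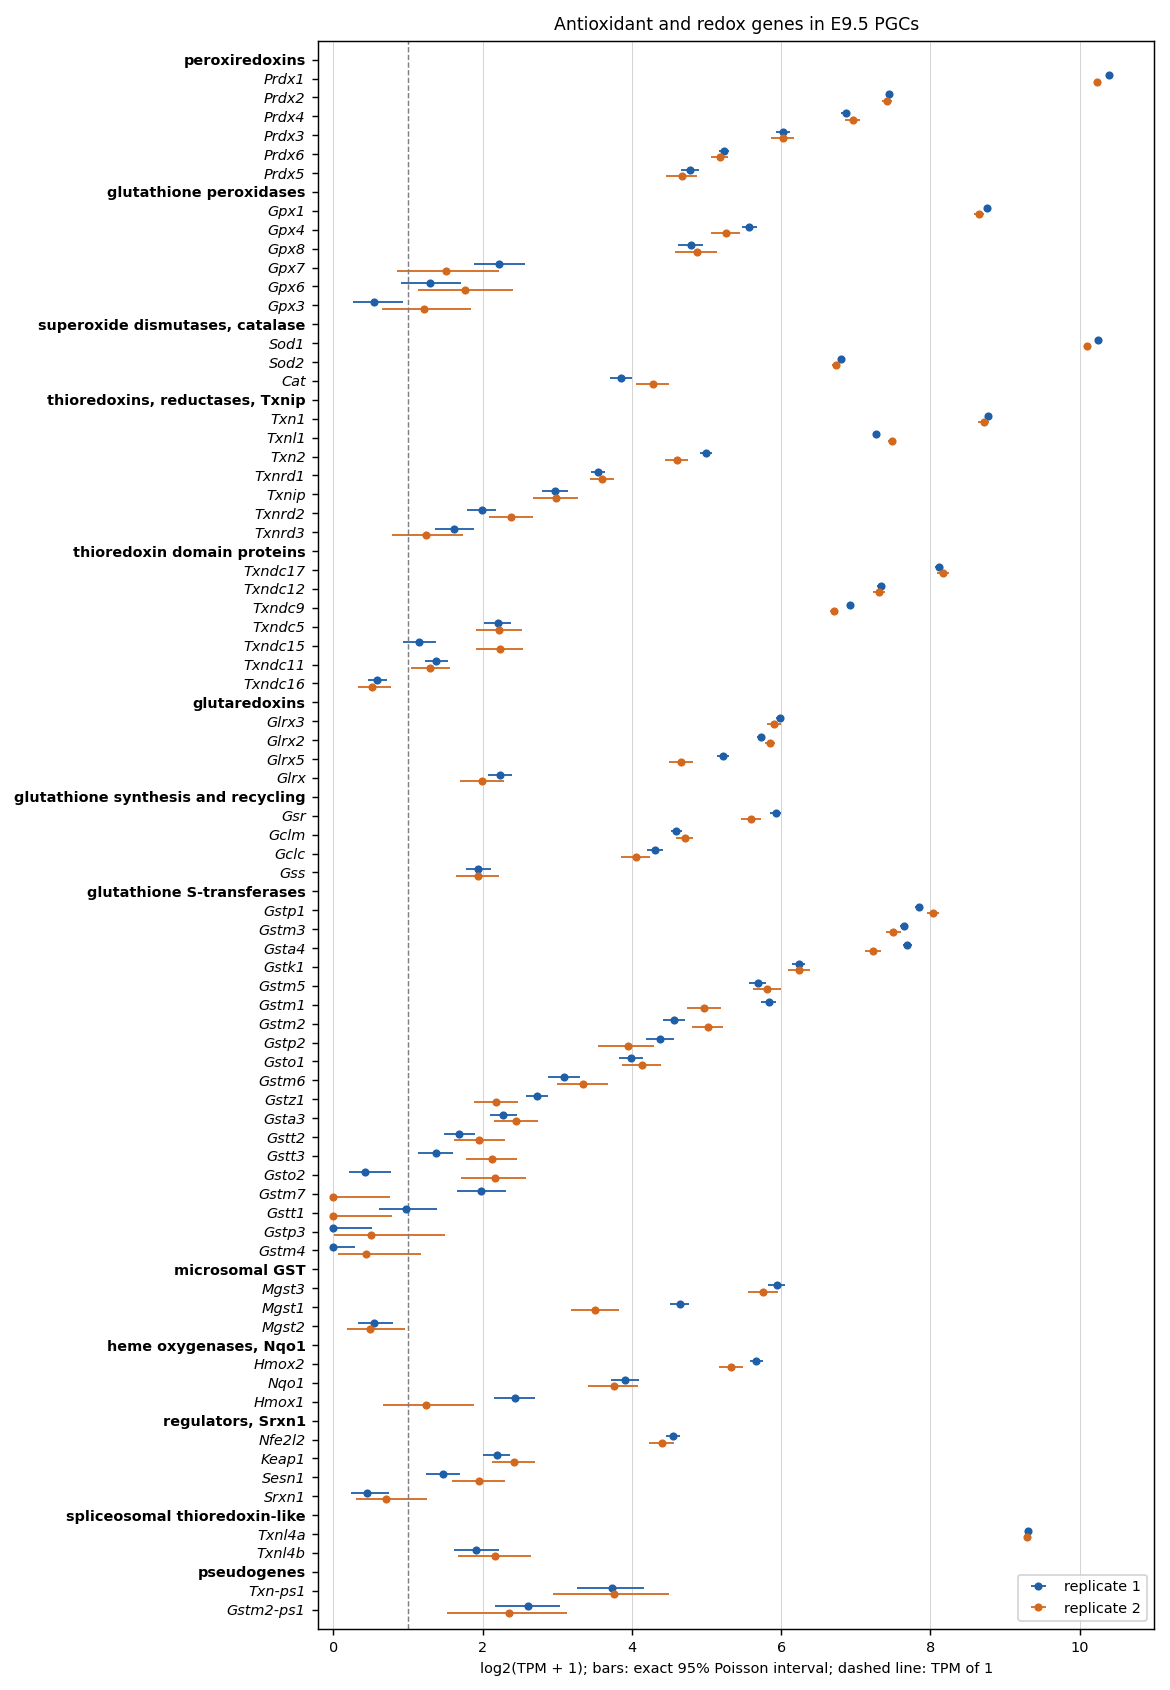
Level of each of the 70 genes in both libraries as log2(TPM + 1), grouped by role and ordered by mean within a group; points are single libraries and bars exact 95% Poisson intervals. Prdx1 and Sod1 sit above 10 in both libraries. Intervals are wide for some genes with few reads, such as Gstm2-ps1 in replicate 2 on 9 reads. The dashed line is at 1 TPM.

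The peroxiredoxins, thiol enzymes that reduce hydrogen peroxide, were the largest group, with a summed level of 1688 ± 95.4 TPM or 25.6% of the 70 genes' total. All 6 were detected. Prdx1, the main cytosolic member, was listed at 1339.7 TPM in replicate 1 and 1204 in replicate 2. It was thus the highest of all 70 genes in both libraries, and stood at place 131 of 18877 by mean. Prdx2, another cytosolic member that is abundant in red cells, followed at 173 and 170.2 TPM. The endoplasmic reticulum member Prdx4 was at 115 and 123.3 TPM, and mitochondrial Prdx3 at 64.4 and 64.0. Prdx6, which uses glutathione rather than thioredoxin, and Prdx5, found in several compartments, were lower, at 35.9 ± 1.03 and 25.4 ± 1.37 TPM. On the gene lengths behind the deposited values the order of the 6 was the same in both libraries. Srxn1, sulfiredoxin, which repairs over-oxidized peroxiredoxins, was near the limit of detection at 0.373 TPM (0.179 to 0.686) and 0.636 TPM (0.234 to 1.39), on 10 and 6 reads.

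The superoxide dismutases were far above catalase. Sod1, the cytosolic copper-zinc enzyme, was at 1207 and 1094 TPM. On the gene lengths behind the deposited values it was below Prdx1 within each library, although the ranges of both genes over the libraries met. It stood clear of every lower gene. Sod2, the mitochondrial manganese enzyme, was at 111 and 105 TPM, so that the Sod1 to Sod2 ratio was 10.6 ± 0.344. Cat, the peroxisomal catalase, was listed at 13.5 TPM in replicate 1 (12.1 to 15.1) and 18.4 in replicate 2 (15.7 to 21.5). It was higher in replicate 2, and these counting intervals did not overlap. The erythroid markers, which were high in both libraries, could bear on red cell enzymes, among them Prdx2, Cat and Gpx1. The summed level of these markers was slightly lower in replicate 2. Their part in the levels of these enzymes, or in that of Sod1, was not tested.

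Among the glutathione peroxidases, Gpx1 and Gpx4 contain selenocysteine, which is encoded by an in-frame TGA that is otherwise a stop codon. Of 68 protein-coding genes of the set, 6 held such a codon in their annotated coding sequence (Gpx1, Gpx3, Gpx4, Txnrd1, Txnrd2 and Txnrd3), and in each it was at the position that GENCODE annotates as selenocysteine. The coding windows of the 6 glutathione peroxidases are shown because this codon is what separates the selenoproteins from the others. They are from GENCODE M21 transcripts, 5′ to 3′, and capitals mark the codon aligned with the selenocysteine codon of Gpx1.
Gpx1: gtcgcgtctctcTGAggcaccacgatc
Gpx3: gtagccagctacTGAggtctgacagac
Gpx4: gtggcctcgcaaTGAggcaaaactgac
Gpx6: gtggcatccttcTGTggcctgacagct
Gpx7: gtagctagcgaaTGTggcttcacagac
Gpx8: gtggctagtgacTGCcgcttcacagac
The codon is number 47 of 201 in Gpx1, 73 of 226 in Gpx3 and 129 of 253 in the long Gpx4 transcript, whereas Gpx6, Gpx7 and Gpx8 have a cysteine codon, TGT or TGC, in its place. In the 3 thioredoxin reductases the TGA was the last codon but one, at 612 of 613 in Txnrd1, 526 of 527 in Txnrd2 and 614 of 615 in Txnrd3.

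Gpx1, the cytosolic enzyme (mm10 chr9:108338903-108340343, plus strand), was at 433 and 400.4 TPM and accounted for most of its family, which summed to 492 ± 28.7 TPM. Gpx4, which reduces lipid hydroperoxides in membranes, was at 46.7 and 37.3 TPM. Gpx1 exceeded it 10.01 ± 1.03-fold on the deposited lengths and 7.48 ± 0.769-fold per base of the principal transcript. A share of 17.4% of the 150-base stretches of Gpx4 transcripts also occurs in the pseudogene Gpx4-ps2, so its reads may be partly divided. Gpx8, an endoplasmic reticulum member, was at 26.7 and 28.2 TPM. Gpx7, of the same compartment, was at 3.67 TPM (2.68 to 4.91) and 1.86 (0.801 to 3.66). Gpx6 was at 1.46 and 2.41 TPM, and Gpx3, the secreted plasma enzyme, at 0.464 and 1.32 TPM on 8 reads in each library. The selenoproteins Gpx1, Gpx3 and Gpx4 together held 93.8% of the family's TPM in replicate 1 and 93.1% in replicate 2. Gpx2 and Gpx5 were not analysed here.

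**Figure D2:**
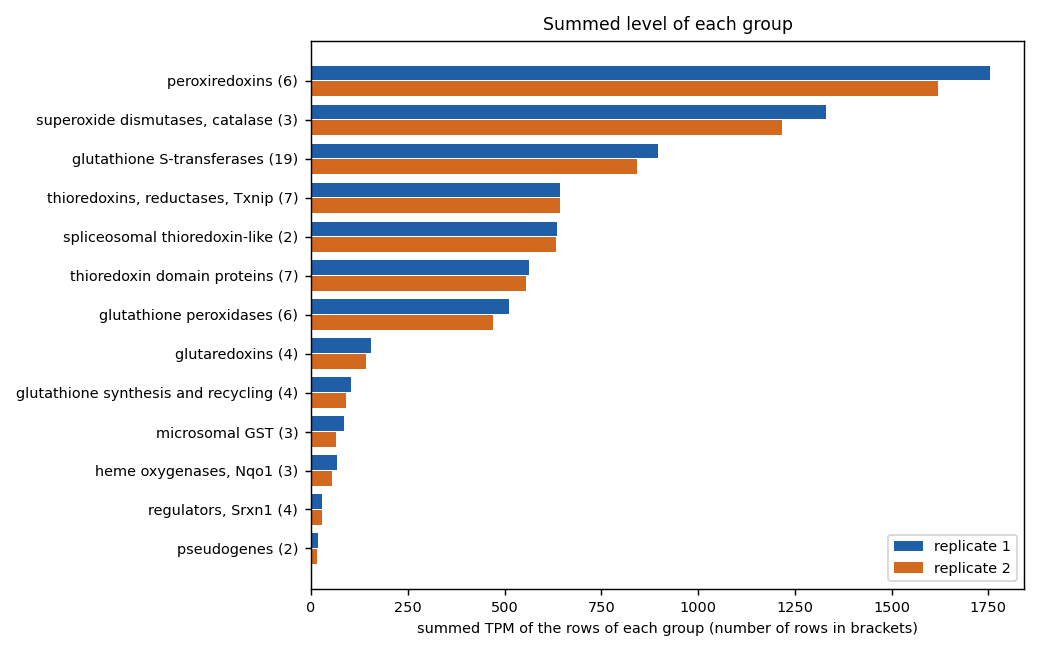
Summed TPM of each group of genes in replicate 1 and replicate 2 (bars, number of genes in brackets; the axis starts at 0). Peroxiredoxins reach 1756 and 1621 TPM, and the 19 glutathione S-transferases together 898 and 841 TPM.

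In the thioredoxin system the carrier was far above its reductase. Txn1, cytosolic thioredoxin, was at 436 and 419 TPM. Txn2, its mitochondrial counterpart, was at 30.9 and 23.2 TPM. The reductases were lower: cytosolic Txnrd1 at 10.7 and 11.1 TPM, mitochondrial Txnrd2 at 2.96 and 4.21, and Txnrd3, best known from testis, at 2.08 and 1.37. Txn1 thus exceeded Txnrd1 39.2 ± 2.25-fold on the deposited lengths and 19.5 ± 1.12-fold per base of the principal transcript. Txnip, which binds and inhibits thioredoxin, was at 6.87 and 6.90 TPM. The pseudogene Txn-ps1 was listed at 12.3 and 12.6 TPM on 36 and 13 reads. No 150-base stretch of it occurs in Txn1, but 9.62% of its 50-base stretches do, so part of its count could be Txn1 reads, which was not tested.

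The other thioredoxin-fold genes had mixed levels. Txnl4a, a subunit of the spliceosome, was at 633 and 629 TPM, the third highest of the set, whereas its relative Txnl4b was at 2.78 and 3.48. Txnl1, which associates with the proteasome, was at 153 and 178 TPM. Of the 7 Txndc genes, Txndc17, a cytosolic disulfide reductase, was highest at 276 and 286 TPM. Txndc12, of the endoplasmic reticulum, was at 161 and 158 TPM, and Txndc9, a cofactor of the chaperonin CCT, at 120.2 and 103. The remaining 4 were below 4 TPM, with Txndc16 at 0.5001 and 0.439 TPM. Of the glutaredoxins, Glrx3, a cytosolic iron-sulfur protein, and Glrx2, which includes the mitochondrial form, were the highest at 60.5 ± 2.26 and 54.3 ± 3.41 TPM. Mitochondrial Glrx5, needed for iron-sulfur cluster assembly, was at 36.4 and 24.4 TPM, and cytosolic Glrx at 3.70 and 2.99.

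Pairs of enzymes with a cytosolic and a mitochondrial member were set side by side. The cytosolic member was higher in both libraries in 4 of the 5 pairs. The ratio of levels was 19.8 ± 1.40 for Prdx1 over Prdx3, 16.1 ± 2.77 for Txn1 over Txn2, 10.6 ± 0.344 for Sod1 over Sod2 and 3.13 ± 0.684 for Txnrd1 over Txnrd2. Glrx over Glrx2 went the other way, with a ratio of 0.0621 ± 0.0130. Every ratio lay on the same side of 1 in both libraries. The ratios other than Sod1 over Sod2 moved when their genes were scaled by the principal transcript, as given further on. Sod1 and Sod2 could not be rescaled, so how far their ratio depends on gene length is not known. Their summed exon length was 6.19 times the principal transcript for Sod1 and 1.71 times for Sod2.

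Glutathione is made in 2 steps, by glutamate-cysteine ligase (catalytic Gclc and modifier Gclm) and glutathione synthetase (Gss), and is recycled by glutathione reductase (Gsr). Gsr was highest, at 59.8 and 47.6 TPM. Gclm was at 23.2 and 25.1 TPM and Gclc at 18.9 and 15.6, a Gclm to Gclc ratio of 1.42 ± 0.273. Gss was at 2.85 and 2.83 TPM, the lowest of the 4 in both libraries. Exons of Gss overlap other genes on the opposite strand over 18.6% of their length, and strand handling in the counting is not stated.

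The cytosolic and other glutathione S-transferases summed to 869 ± 39.8 TPM over 19 genes, of which 14 were detected in both libraries. The mu class made up 323 ± 23.2 TPM, the pi class 263 ± 19.5 and the alpha class 182 ± 39.3. Each was mostly the product of 1 gene. Gstp1 was at 229 and 262 TPM, beside Gstp2 at 19.8 and 14.4 TPM and Gstp3 at 0 reads in replicate 1 (up to 0.348 TPM by the 3-read limit) and about 1 read in replicate 2. Gstp1 and Gstp2 share sequence, 17.6% and 35.7% of their 150-base stretches, so the split between them is uncertain. Gstm3 was at 199.6 and 180.2 TPM and Gsta4, which acts on the lipid peroxidation product 4-hydroxynonenal, at 205 and 149. Mitochondrial and peroxisomal Gstk1 was at 74.4 and 74.7 TPM. The omega, theta and zeta classes summed to 17.6 ± 3.42, 5.50 ± 1.02 and 4.59 ± 1.497 TPM.

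The mu genes lie in 1 cluster of 149 kb on chromosome 3 (mm10 chr3:107895821-108044894), in the order Gstm5, Gstm7, Gstm6, Gstm3, Gstm2, Gstm1 and Gstm4. Mean levels of these neighbours ranged from 0.175 to 189.9 TPM. Gstm5 at one end was at 50.5 and 55.2 TPM, and Gstm4 at the other end at 0 and 0.350 TPM on 0 and 2 reads. Gstm1 was at 56.1 TPM in replicate 1 and 30.3 in replicate 2, whereas the adjacent Gstm2 was at 22.7 and 31.4. Gstm1 was thus above Gstm2 in replicate 1, whereas in replicate 2 their counting intervals (25.6 to 35.5 and 26.9 to 36.3 TPM) overlapped almost wholly and gave no order. Gstm1, Gstm3 and the pseudogene Gstm2-ps1 share 50-base stretches (18.9%, 28.8% and 46.9% of theirs), so the split of reads among them is uncertain. The 3 theta genes on chromosome 10 were all below 4 TPM, and Gstt1 had 14 reads in replicate 1 and 0 in replicate 2. A count of 0 there allows up to 0.587 TPM, while replicate 1 was at 0.964 TPM (0.527 to 1.62), so that these intervals overlapped.

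**Figure D3:**
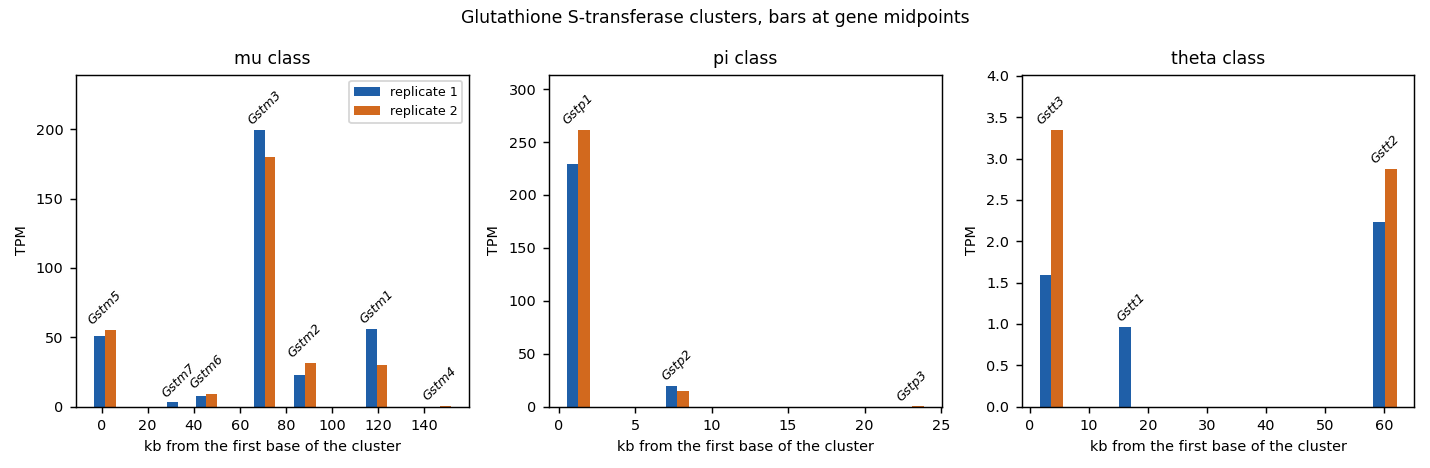
TPM of the mu, pi and theta glutathione S-transferase genes in both libraries, at each gene's midpoint along its cluster (kb from the first base). Gstm3 and Gstp1 dominate their clusters, and the theta axis ends at 4 TPM.

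Of the membrane-bound Mgst genes, Mgst3 was at 60.4 and 53.2 TPM and Mgst2 at 0.455 and 0.404. Per base of its much shorter principal transcript Mgst2 was at 2.07 and 1.83 TPM, so its place below 1 TPM depended on the length used. Mgst1, of the endoplasmic reticulum and mitochondrial outer membrane, was at 24.0 TPM (21.8 to 26.3) in replicate 1 and 10.4 TPM (8.11 to 13.1) in replicate 2. The heme oxygenases break down heme. Hmox2, the constitutive form, was at 49.8 and 39.3 TPM, although 40.2% of its exonic bases overlap Cdip1 on the other strand. Hmox1, the inducible form, was at 4.39 TPM (3.44 to 5.51) in replicate 1 and 1.37 TPM (0.590 to 2.69) in replicate 2, on 73 and 8 reads. Nqo1, a quinone reductase and a standard NRF2 target, was at 14.0 and 12.5 TPM. The regulator Nfe2l2 was at 22.4 and 20.1 TPM and its inhibitor Keap1 at 3.56 and 4.33, a ratio of 5.46 ± 1.17. Sesn1, a sestrin, was at 1.77 and 2.85 TPM. Exons of Keap1 overlap a gene on the opposite strand over 10.9% of their length.

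Replicates were alike for the well covered genes. Across the 70 genes the Pearson r of log2(TPM + 1) was 0.982 and the Spearman rho 0.970, beside an r of 0.960 over all genes. These points come from the same 2 libraries and span all levels, so the correlation is given only as a description. The median difference, replicate 2 minus replicate 1, was -0.02 for the set and -0.01 for all genes. In replicate 2, 39 of the 70 were lower and 31 higher. Of all 18877 genes, 9688 (51.3%) were lower and 7715 higher. The other 1474 were at 0 in both libraries and have no direction, whereas none of the 70 was, so 51.3% is not directly comparable. Counting intervals did not overlap for 24 of the 70, or 34.3%, beside 24.7% of all genes with a gene model, and read counts were approximate for 10 of the 70.

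A difference over 2-fold on the log2(TPM + 1) scale was found for 5 of 70 genes (7.14%, beside 10.2% of all genes and 5.14% of the protein-coding ones). Of these, 3 were higher in replicate 1 (5.89% of all genes) and 2 in replicate 2 (4.31%). Gstm7 was at 2.96 TPM on 45 reads in replicate 1 and at 0 in replicate 2, which allows up to 0.560 TPM. Hmox1 and Mgst1 were also lower in replicate 2. Gsto2 was at 0.339 and 3.47 TPM, on reads that are approximate because its values were not whole reads at the exon length used here, and Txndc15 at 1.223 TPM on 51 reads and 3.68 on 54. Among the 36 redox genes with at least 100 reads in each library, none differed over 2-fold, beside 0.367% of 5443 genes with that many, and the ratio of replicate 2 to replicate 1 ranged from 0.539 for Gstm1 to 1.38 for Gstm2.

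The macrophage markers differed in the same direction as Gstm7, Hmox1 and Mgst1, and in the opposite direction to Gsto2 and Txndc15. Fcer1g was at 10.95 and 6.16 TPM, Csf1r at 4.29 and 2.02, Tyrobp at 2.997 and 1.35, and C1qb at 1.16 and 0, so 4 of 4 in the table were lower in replicate 2. Their part in the differences of these redox genes was not tested.

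**Figure D4:**
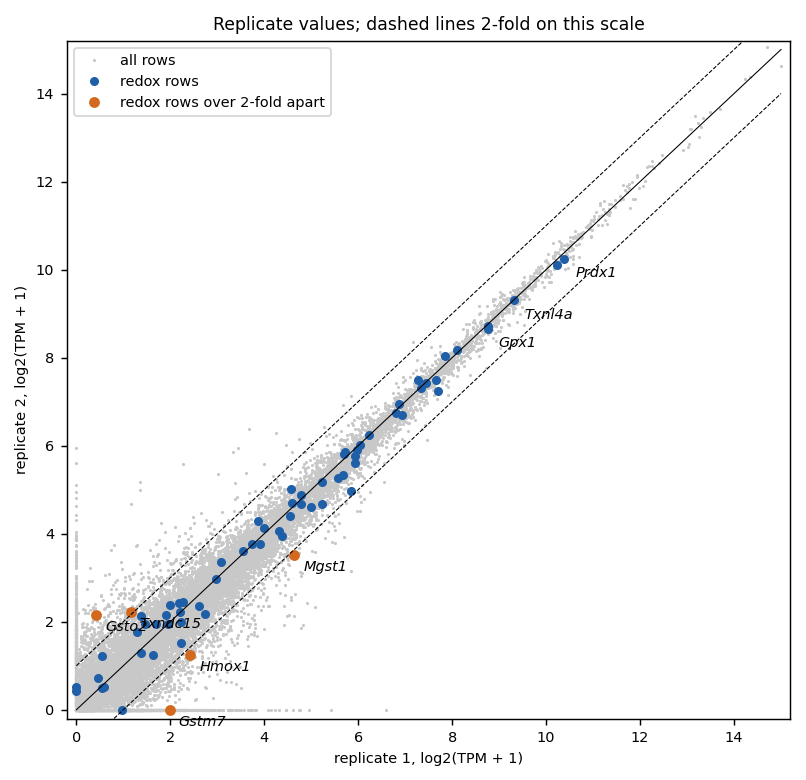
Level of every gene (grey) and of the 70 redox genes (colour) in replicate 1 against replicate 2, both as log2(TPM + 1), with the line of equality and lines 2-fold away on this scale. The 5 named genes in orange are the ones over 2-fold apart, and all 5 lie below 5 in replicate 1.

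Promoters were searched in RefSeq GRCm38.p6 windows, from 250 bases before to 50 after each gene start, which matched 60 of the 70 genes. The core of the ARE, TGACNNNGC on either strand, occurred in 12 of them (20.0%), beside 16.4% of the 10839 genes of the table with a window and 12.4% of all 32851 windows. The AP-1 site TGACTCA, which can overlap the ARE core, occurred in 7 (11.7%, beside 4.32% of table genes). The GC box GGGCGG occurred in 47 (78.3%, beside 65.2%), and the TATA box TATAAA in 10 (16.7%, beside 9.39%). Sites in Prdx1, the highest gene, in Sod1, the second highest, in Gclm and in Nfe2l2 itself are shown with 10 bases on either side, 5′ to 3′ on the gene's strand, with the core or its reverse complement in capitals. Their positions are chr4:116685456-116685484 for Prdx1, chr16:90220696-90220724 for Sod1, chr3:122245413-122245441 for Gclm and, on the minus strand, chr2:75704885-75704913 for Nfe2l2.
Prdx1: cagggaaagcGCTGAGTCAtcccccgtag
Sod1: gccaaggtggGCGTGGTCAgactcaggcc
Gclm: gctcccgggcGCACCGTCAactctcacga
Nfe2l2: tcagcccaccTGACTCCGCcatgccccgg
The Prdx1 site also held the AP-1 letters. The median level of the 12 genes with a core was 4.05 and 3.56 on the log2 scale, beside 4.18 and 4.21 for the 48 genes without one. This difference was not tested, and the highest pair of genes, Prdx1 and Sod1, both held a core. These letters are a description and not a site in use.

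The genes that serve these enzymes were looked at in 9 lists of 71 genes outside the set, of which 55 were in the table. Of these 55, 47 (85.5%) were detected in both libraries, beside 60.0% of all genes in the table and 69.5% of the protein-coding ones. Listed genes that were not in the table are not counted in that share. The lists were chosen with earlier results of these data known, so the share is only a description. All 7 selenoprotein synthesis genes in the table were detected, led by Sephs2, which makes the selenium donor and is itself a selenoprotein, at 217 and 212 TPM. All 6 iron and metal storage genes were detected, and the ferritin subunits Ftl1 (626 and 540.0 TPM) and Fth1 (435 and 417 TPM) and metallothionein Mt1 (164 and 163 TPM) were at or above the level of most redox enzymes. Of 12 regulators of the oxidant response, 10 were detected, led by Rbx1 (531 and 564 TPM), part of the ligase that KEAP1 directs, Park7 (336 and 300.2 TPM) and Cul3 (53.7 and 52.0 TPM). Of the 10 genes listed under NADPH supply and its pathways, 8 were detected. The highest were Taldo1 (66.1 and 67.6 TPM), Idh1 (65.1 and 43.2 TPM) and Idh2 (25.6 and 30.2 TPM). G6pdx, the entry enzyme of the pentose phosphate pathway, named after its values were seen, was at 4.17 and 0.388 TPM. Only 2 of 10 NADPH oxidase and xanthine dehydrogenase genes were in the table, Nox1 at 13.6 and 16.5 TPM and Cyba at 3.85 and 2.30, and the other 8 were not analysed here. In the remaining lists, 3 of 5 cystine and transsulfuration genes (led by Slc3a2 at 28.8 and 38.6 TPM), 3 of 3 methionine sulfoxide reductases (Msrb2 at 16.3 and 11.5 TPM), 3 of 4 other transferase-fold genes (Eef1g at 406 and 429 TPM) and 5 of 6 ferroptosis genes (Lpcat3 at 21.3 and 17.9 TPM) were detected.

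The gene length behind a TPM mattered for the order of the genes. The deposited values fit the summed length of all annotated exons, which was 1.48 times the principal transcript in the median of the 70 genes, beside 1.10 over all genes with a model. When the recovered reads of the 60 genes with whole counts were instead divided by the principal transcript, an alternative chosen after the data were seen, Prdx1 was at 1319.9 and 1181 TPM and remained the highest of those 60 genes. Txn1 went from 427 to 317 TPM in the mean, and Gpx1, at 415, then stood above it. Txndc9 went from 112 to 223 TPM, Glrx3 from 60.5 to 133 and Glrx2 from 54.3 to 106. Prdx2 went from 172 to 241 TPM. Prdx6, at 54.8 and 52.4 TPM, then stood above Prdx3, at 47.8 and 47.3. The Txn1 to Txn2 ratio moved to 7.82 ± 1.35, Prdx1 to Prdx3 to 26.3 ± 1.86, Txnrd1 to Txnrd2 to 4.10 ± 0.896 and Glrx to Glrx2 to 0.0964 ± 0.0203, with no change of direction. Sod1, Sod2, Txnl4a, Txnl1 and 6 further genes could not be rescaled, because their values were not whole reads at the exon length used here, and they kept the deposited length.

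**Figure D5:**
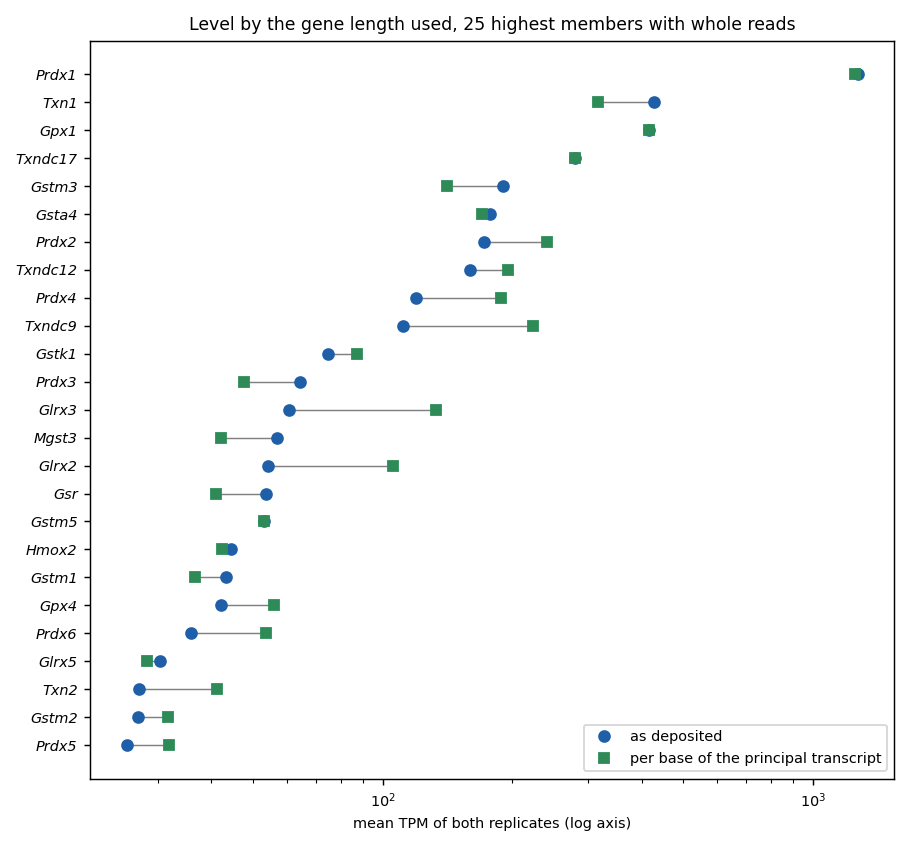
Mean TPM of both replicates for the 25 highest redox genes with whole recovered reads, as deposited (circles) and per base of the principal transcript (squares), on a log axis; lines join the values of a gene. Txndc9, Glrx3 and Glrx2 move up most and Txn1, Gstm3 and Prdx3 move down.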

How the data were processed

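The authors aligned reads of both E9.5 PGC libraries to mm10 with Hisat2, counted them per gene with featureCounts and deposited TPM. The submitters' processing notes also name Bowtie2, RSEM, DESeq2 and R 3.4.2. Annotation, strand and multi-mapping are not given in the sources used here. The 2 columns summed to 998792 and 998955 TPM.

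All 70 symbols matched GENCODE M21 on GRCm38. TPM times summed exon length gave whole reads within 0.02 for 96.7% and 95.8% of values under 50 reads (4% by chance). Of the 70 genes, 60 were whole in both libraries. In whole counts simulated with these same exon lengths, the step gave back 100% of the counts in each library. That could not show whether the authors' gene lengths or counting differ. The libraries differed beyond counting noise (chi-square per gene 10.8 over 11115 genes) and were kept as 2 replicates. With 1 group no test was run. Values used a pseudocount of 1, a detection threshold of 1 TPM and a limit of 3 reads for a zero. Any gene the rule matched could be named, with the 3 highest genes of each supporting list, those listed at 0 and the cell type markers. The members and lists were chosen with earlier results of these data known. Glutathione peroxidase codons were aligned as proteins (BLOSUM, Biopython 1.88). Python 3.11.15, numpy 2.4.6, pandas 2.3.3, scipy 1.17.1 and matplotlib 3.10.9 were used. The separate value of 1 marker gene is not reported here.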

Additional observations from a re-analysis of the deposited data

How the results depend on the processing

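No paired analysis was possible because both libraries belong to 1 group. Of 44 alternative values for 8 results, 9 moved and 1 changed sign by the limits used, which for a count is a change of 1.5 times. Within that limit the redox genes detected went from 61 to 43 at 5 TPM and 41 at 10 TPM, and the supporting genes from 47 to 32 at 5 TPM. The median level was 4.60 among genes with a mean of at least 1 TPM, and 3.96 with principal transcript lengths. The share held by the redox genes was 1.25% of recovered reads, 0.827% of TPM without genes under 200 exonic bases and mitochondrial ones, and 0.623% with principal lengths. The number over 2-fold apart was 10 with a pseudocount of 0.1 and 0 with at least 100 reads in each library. The selenoprotein share was 95.1% of reads and 95.2% with principal lengths. The median difference between replicates turned from -0.023 to 0.023 when replicate 2 was rescaled by 1.03, and no direction is drawn from it. With 1 replicate left out, genes detected ranged from 62 to 63, the median level from 4.09 to 4.35, the share from 0.639% to 0.680%, the selenoprotein share from 93.1% to 93.8%, the supporting genes from 49 to 51, and the pairs stayed at 4. The principal length, the 100-read filter and leaving out pseudogenes were chosen after seeing the data. Counting intervals were wide for genes with few reads in replicate 2.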
